A study of Mus musculus with 14 samples.

Results

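The liver makes nearly all of the clotting factors, clotting inhibitors and complement proteins of plasma. Transcripts of 36 such genes were followed here in mouse liver under stress of the endoplasmic reticulum (ER). The set was fixed by name, but with earlier results of these data known. It listed 38 genes, and a gene was measured by the probe sets that carry its symbol in the platform annotation. Of these, Cpb2 and C3 had no probe set of their name and were not analysed here. The other 36 genes had 49 probe sets, each gene was represented by its probe set with the highest mean signal, and all 36 passed the filter on dim signals, among 12084 genes tested in all. They comprised 13 clotting cascade and contact factors, 9 anticoagulants and fibrinolysis proteins, and 14 complement proteins.

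The 14 arrays, 1 per liver sample, fell into 4 groups of the labels' titles. The groups were 4 lsPERK and 4 WT samples taken 6 h after 1 mg/kg tunicamycin, and 3 lsPERK and 3 WT control samples given 0.3% DMSO, for which no time is stated. lsPERK is the knock-out genotype of the series, which concerns PERK, the ER kinase encoded by Eif2ak3, and WT is wild type. The sources used here do not give the deletion's driver, the animals' age and sex, or whether replicates came from separate animals. The p-values therefore rest on the spread among these samples, which may be technical in part. Every group held arrays of high and of low signal for Xist, the RNA of the inactive X chromosome (7878 to 9297 against 23.4 to 61.2 as deposited). The arrays of a group are thus not all from 1 animal, and animals of both sexes may be mixed within each group. Tunicamycin blocks N-linked glycosylation and thereby loads the ER with unfolded protein.

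Secreted glycoproteins enter the ER during their synthesis, fold there and leave through the Golgi apparatus. In the clotting cascade, serine proteases circulate as inactive precursors and activate one another until thrombin cuts fibrinogen to fibrin. Antithrombin, heparin cofactor II and the protein C system restrain the cascade, and plasmin dissolves the clot. Complement is another protease cascade in plasma, started by antibodies, by lectins that bind microbial sugars or by spontaneous turnover, and it ends in a pore built from its terminal components. When PERK is active it phosphorylates eIF2, which lowers general protein synthesis and changes the transcription of stress genes.

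Quality measures bear on all the comparisons. The brightest Eif2ak3 probe set read 239 to 316 in lsPERK livers given tunicamycin, against 1720 to 2420 in WT livers given tunicamycin. Without tunicamycin it read 127 to 157 in lsPERK and 240 to 443 in WT livers. Defining hepatocyte transcripts (7 of 8 listed had a named probe set above the filter, with none for Trf) summed to between 112100 and 120500 on every array. Quantile normalization gives every array the same set of values, which holds a sum over such bright genes nearly constant. That sum therefore cannot show whether hepatocyte content was equal. Single markers among these 7 did move: 0 passed the test in the lsPERK response, and 1 rose and 2 fell in WT livers (log2 from -0.58 to 0.88). Between livers given tunicamycin 2 were higher and 1 lower in lsPERK than in WT. The 10 Kupffer cell markers, all above the filter, summed to 9092 to 13970 in lsPERK and 5495 to 17740 in WT livers given tunicamycin, against 8571 to 26140 in lsPERK and 9271 to 26790 in WT control livers. All 10 had a negative log2 response in both genotypes, and 0 passed the test in lsPERK and 1 in WT. The 7 leukocyte markers tested (of 10 listed) were negative in both genotypes too, with medians of -0.86 in lsPERK and -0.71 in WT, and 0 passed. They summed to 430.8 to 598.1 in lsPERK and 295.5 to 889.2 in WT livers given tunicamycin, against 574.3 to 1585 in lsPERK and 501.5 to 1385 in WT control livers. Their part in the results was not tested, and in such bulk samples fewer cells of a type and less RNA per cell cannot be told apart. The log2 ratio of 3′ to 5′ actin control signal averaged 0.68 ± 0.10 (SD, n = 4) in lsPERK and 0.84 ± 0.25 (n = 4) in WT livers given tunicamycin, and 0.87 ± 0.25 (n = 3) in lsPERK and 1.10 ± 0.15 (n = 3) in WT control livers. With that ratio as a covariate the counts of members called, given for each comparison below, were 7 in the lsPERK response, 24 in the WT response, 0 between control livers, 19 between livers given tunicamycin and 11 for the difference of responses.

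In lsPERK livers a minority of these transcripts fell after tunicamycin. In limma's test at an adjusted p under 0.05, the threshold used throughout, 8 of 36 fell and 0 rose: F7, F13b, Proc, Pros1, Proz, C2, Hc and Mbl2, against 7.28% of all genes lower and 8.39% higher. The median log2 response was -0.07 for the 36 and -0.02 for all genes, and it was 0.04 for the 36 when arrays were centred on their medians in place of quantile normalization. By separate arrays 13 were lower and 1, F11, was higher, where all genes gave 13.8% and 13.4%. By role 2 of 13 clotting factors, 3 of 9 anticoagulants and fibrinolysis proteins and 3 of 14 complement proteins fell. The count was 4 (F7, Proc, Pros1 and Hc) without lsPERK control replicate 2, 3 with values as deposited (F7, Proc and Hc) and 2 with median centring (F7 and Hc).

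In WT livers most of these transcripts fell after tunicamycin. Of the 36, 25 fell and 1, C4bp, rose in limma's test and the 25 included all 8 that fell in lsPERK livers. Over all 12084 genes the same test called 26.0% lower and 20.7% higher. The median log2 response of the 36 was -0.38, and that of all genes tested was -0.13. By the arrays themselves, 25 members had every WT tunicamycin array below every WT control array and 1 had every one above, where all genes gave 26.5% and 21.6%. F11 and Fga were called with overlapping arrays, and F2 and Fgg had separate arrays without a call. The steepest falls were those of Hc, the complement component C5, at -1.79, and F7, the factor VII that starts clotting with tissue factor, at -1.47. The split by role was 9 of 13 clotting and contact factors, 8 of 9 anticoagulants and fibrinolysis proteins and 8 of 14 complement proteins lower. With the intensities left as deposited, the count was 1 higher and 9 lower (F7, F13b, Klkb1, Proc, Serpind1, Hrg, Hc, Cfb and Mbl1), and on that scale the median of all genes was 0.30 and that of the 36 was -0.20.

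**Figure D1:**
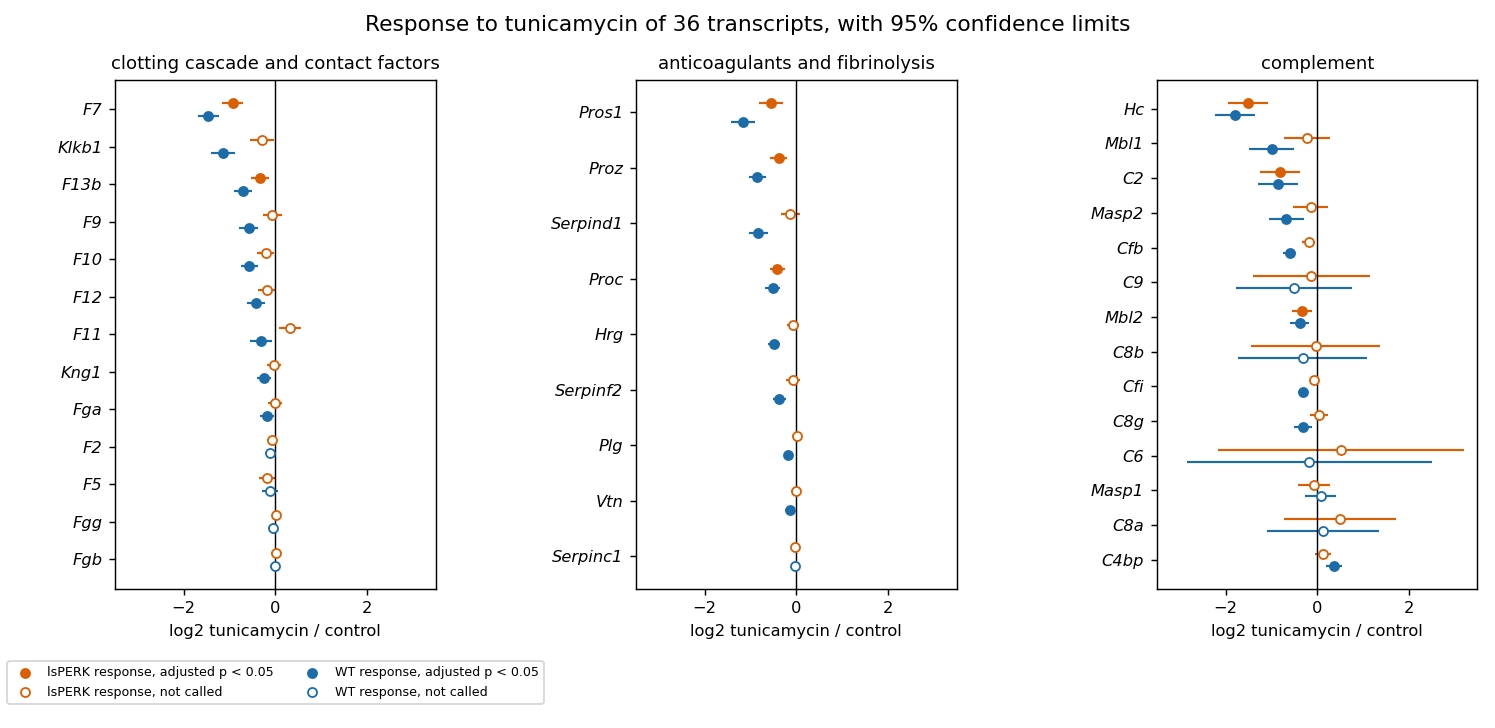
The log2 ratio of tunicamycin to control livers for each of the 36 transcripts, by role, with 95% confidence limits from the limma fit. Orange points are the lsPERK response and blue points the WT response, filled where the adjusted p was under 0.05. Blue points lie left of orange ones for 33 of 36 genes, and the limits of C6, C8a, C8b and C9 are the widest.

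The promoters of 4 genes are printed as examples. They are F7, Klkb1 and Hc, whose transcripts fell steeply in WT livers, and Fgb, a fibrinogen chain at -0.01 in WT livers. C4bp, the member that rose, is not among them. Each sequence is the 250 bases before the gene's start in RefSeq's GRCm38.p6, 5′ to 3′ on the gene's strand, at chr8:13025784-13026033 (plus strand) for F7, chr8:45294836-45295085 (minus) for Klkb1, chr2:35061413-35061662 (minus) for Hc and chr3:83049864-83050113 (minus) for Fgb. Capitals mark matches, on either strand, to 6 short motifs: GTTAAT of the HNF1 site, CAAAGT and CAAAGG of the HNF4 site, GCAAT of the C/EBP site, CCAAT of the NF-Y box and CCACG, the end of the ER stress element. GCAAT and CCAAT share the letters CAAT, and CAAAGT and CAAAGG the letters CAAAG.
F7: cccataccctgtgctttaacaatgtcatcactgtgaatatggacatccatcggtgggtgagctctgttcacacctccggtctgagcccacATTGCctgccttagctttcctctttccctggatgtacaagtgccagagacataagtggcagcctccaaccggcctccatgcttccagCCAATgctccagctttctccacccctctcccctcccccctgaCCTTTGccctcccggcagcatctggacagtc
Klkb1: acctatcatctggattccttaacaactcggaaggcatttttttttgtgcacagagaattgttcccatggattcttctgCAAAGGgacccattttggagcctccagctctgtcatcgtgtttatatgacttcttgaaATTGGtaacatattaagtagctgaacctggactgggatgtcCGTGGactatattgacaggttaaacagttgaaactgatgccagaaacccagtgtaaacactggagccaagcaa
Hc: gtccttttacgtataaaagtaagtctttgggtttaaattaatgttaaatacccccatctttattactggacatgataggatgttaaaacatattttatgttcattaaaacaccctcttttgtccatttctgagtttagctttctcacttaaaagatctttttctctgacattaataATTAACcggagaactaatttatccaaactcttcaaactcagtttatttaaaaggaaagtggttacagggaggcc
Fgb: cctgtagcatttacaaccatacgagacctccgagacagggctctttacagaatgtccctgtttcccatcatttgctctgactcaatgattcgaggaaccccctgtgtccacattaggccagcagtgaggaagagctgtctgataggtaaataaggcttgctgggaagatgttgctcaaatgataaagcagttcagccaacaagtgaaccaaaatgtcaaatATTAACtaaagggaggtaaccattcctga
Counted from the gene's start, with negative positions before it, the matches in F7 began at -160, -73 and -31 (C/EBP, NF-Y and HNF4 letters). In Klkb1 they began at -172, -114 and -73 (HNF4, NF-Y and ER stress element letters). Hc and Fgb each held 1 match to the HNF1 letters, at -74 in Hc and -29 in Fgb.

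Promoter sequences were at hand for 29 of the 36 genes. The HNF1 letters occurred in 9 of the 29 (31.0%), against 6.52% of 27025 promoters of the same length. CAAAGG occurred in 9 of 29 (31.0%) against 17.6%, and CAAAGT in 7 of 29 (24.1%) against 12.5%. The other letters were no more frequent than in all promoters: GCAAT in 20.7% against 23.3%, CCAAT in 24.1% against 34.5%, and CCACG in 13.8% against 28.2%. Among the 19 genes with a sequence that fell in WT livers, 8 held CAAAGG and 5 the HNF1 letters, and among the other 10 genes 1 and 4 did. CCACG stood in the promoters of Masp2, Proz, Klkb1 and Serpinf2. These are 4 of the 19 that fell in WT and 0 of the other 10, where 28.2% of all promoters held it. These are counts of letters, with no test of their relation to the responses.

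Among the initiating and contact proteases, F7 encodes factor VII. On tunicamycin arrays F7 had normalized intensities of 2319, 2207, 2079 and 2061 in lsPERK livers, against 1229, 1185, 1182 and 1369 in WT livers. On control arrays it had 4062, 4809 and 3587 in lsPERK livers and 3833, 3237 and 3240 in WT livers. No tunicamycin array reached any control array, and all lsPERK tunicamycin arrays stood above all WT ones. F7 fell 1.90-fold in lsPERK (log2 -0.93 ± 0.11, SE; limma adjusted p = 5.03e-05) and 2.77-fold in WT livers (log2 -1.47 ± 0.11; adjusted p = 1.58e-07). The responses differed by 0.54 (adjusted p = 0.0225), a call that was lost when WT control replicate 1 or lsPERK control replicate 3 was left out.

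Klkb1 encodes plasma prekallikrein, which activates factor XII and releases bradykinin from kininogen. It had 6103, 6028, 6197 and 6524 in lsPERK livers given tunicamycin, against 3282, 2934, 3962 and 4412 in WT livers given tunicamycin. Control livers had 6617, 8308 and 8041 in lsPERK and 8301, 7871 and 7796 in WT. The WT tunicamycin arrays alone lay far below the rest, and the lsPERK tunicamycin arrays ended just under the lowest control array. The lsPERK value was -0.29 ± 0.12 (limma adjusted p = 0.124), the WT fall was 2.22-fold (log2 -1.15 ± 0.12; adjusted p = 4.16e-06), and their difference of 0.85 ± 0.17 (adjusted p = 0.00361) was the only one among the 36 called also with values as deposited.

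F11, factor XI, lies next to Klkb1 on chromosome 8. Both were called lower in WT livers and for the difference of responses. In the lsPERK response, where neither was called, their signs were opposite. Intensities of F11 were 4176, 4026, 3636 and 3982 in lsPERK livers given tunicamycin, against 2697, 2239, 2879 and 2560 in WT livers given tunicamycin. Control livers read 3287, 3175 and 2989 in lsPERK and 3786, 3178 and 2700 in WT. The lsPERK tunicamycin arrays were above all lsPERK control arrays, whereas the WT tunicamycin arrays overlapped their controls. The log2 response was 0.33 ± 0.11 in lsPERK (limma adjusted p = 0.0655) and -0.30 ± 0.11 in WT livers (adjusted p = 0.039), and the difference was 0.63 ± 0.16 (adjusted p = 0.0133). The WT value is not stable: with values as deposited it was 0.13, and without WT control replicate 1 its call was lost.

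F9, the factor IX missing in haemophilia B, had 6483, 6617, 6898 and 6472 in lsPERK and 4748, 3602, 4748 and 4862 in WT livers given tunicamycin. Its control intensities were 6353, 7191 and 7218 in lsPERK and 6741, 6512 and 6775 in WT livers. The lsPERK tunicamycin arrays sat among the controls and the WT ones wholly below them. F9 was at -0.06 ± 0.10 in lsPERK (limma adjusted p = 0.73) and fell by 0.58 ± 0.10 on the log2 scale in WT livers (adjusted p = 0.000195), a difference of 0.52 ± 0.13 (adjusted p = 0.0152).

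F10, whose active form makes thrombin, had a log2 response of -0.21 in lsPERK (limma adjusted p = 0.136) and fell by 0.57 on the log2 scale in WT livers (adjusted p = 0.000136). Both dimmer probe sets of F10 passed the test in lsPERK livers too, at -0.39 and -0.41, when every probe set entered the fit. There the difference of responses was called for the latter (0.50, limma adjusted p = 0.0443). It was not called for the former (0.45, adjusted p = 0.091) or the brightest (0.36, adjusted p = 0.0706). F13b, the carrier subunit of the fibrin-crosslinking factor XIII, fell in both, by 0.33 on the log2 scale in lsPERK and by 0.71 in WT livers. F12, the contact factor XII, was at -0.19 in lsPERK and fell by 0.43 in WT, and Kng1, the kininogen that yields bradykinin, was at -0.03 in lsPERK and fell by 0.24 in WT livers. The other probe set of Kng1, in the fit over all probe sets, fell in both, by 0.22 in lsPERK (limma adjusted p = 0.0321) and by 0.48 in WT livers. Kng1 has a near copy, Kng2, beside it on chromosome 16, and the files do not say whether its probe sets tell them apart. The prothrombin gene F2 (-0.07 and -0.12) and F5, the cofactor that speeds thrombin formation (-0.18 and -0.12), did not pass the test in lsPERK or in WT livers.

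Fibrinogen is the protein that thrombin cuts to fibrin. Its 3 chains are encoded side by side on chromosome 3. Fgb had a log2 response of 0.01 in lsPERK and -0.01 in WT livers, and Fgg 0.02 in lsPERK and -0.05 in WT livers, with 95% limits that ran from -0.15 to 0.13 over both genes and genotypes. Fga was at -0.01 in lsPERK and was called lower in WT livers by 0.19 on the log2 scale (limma adjusted p = 0.0382). That call was lost when any of the 3 WT control arrays was left out.

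**Figure D2:**
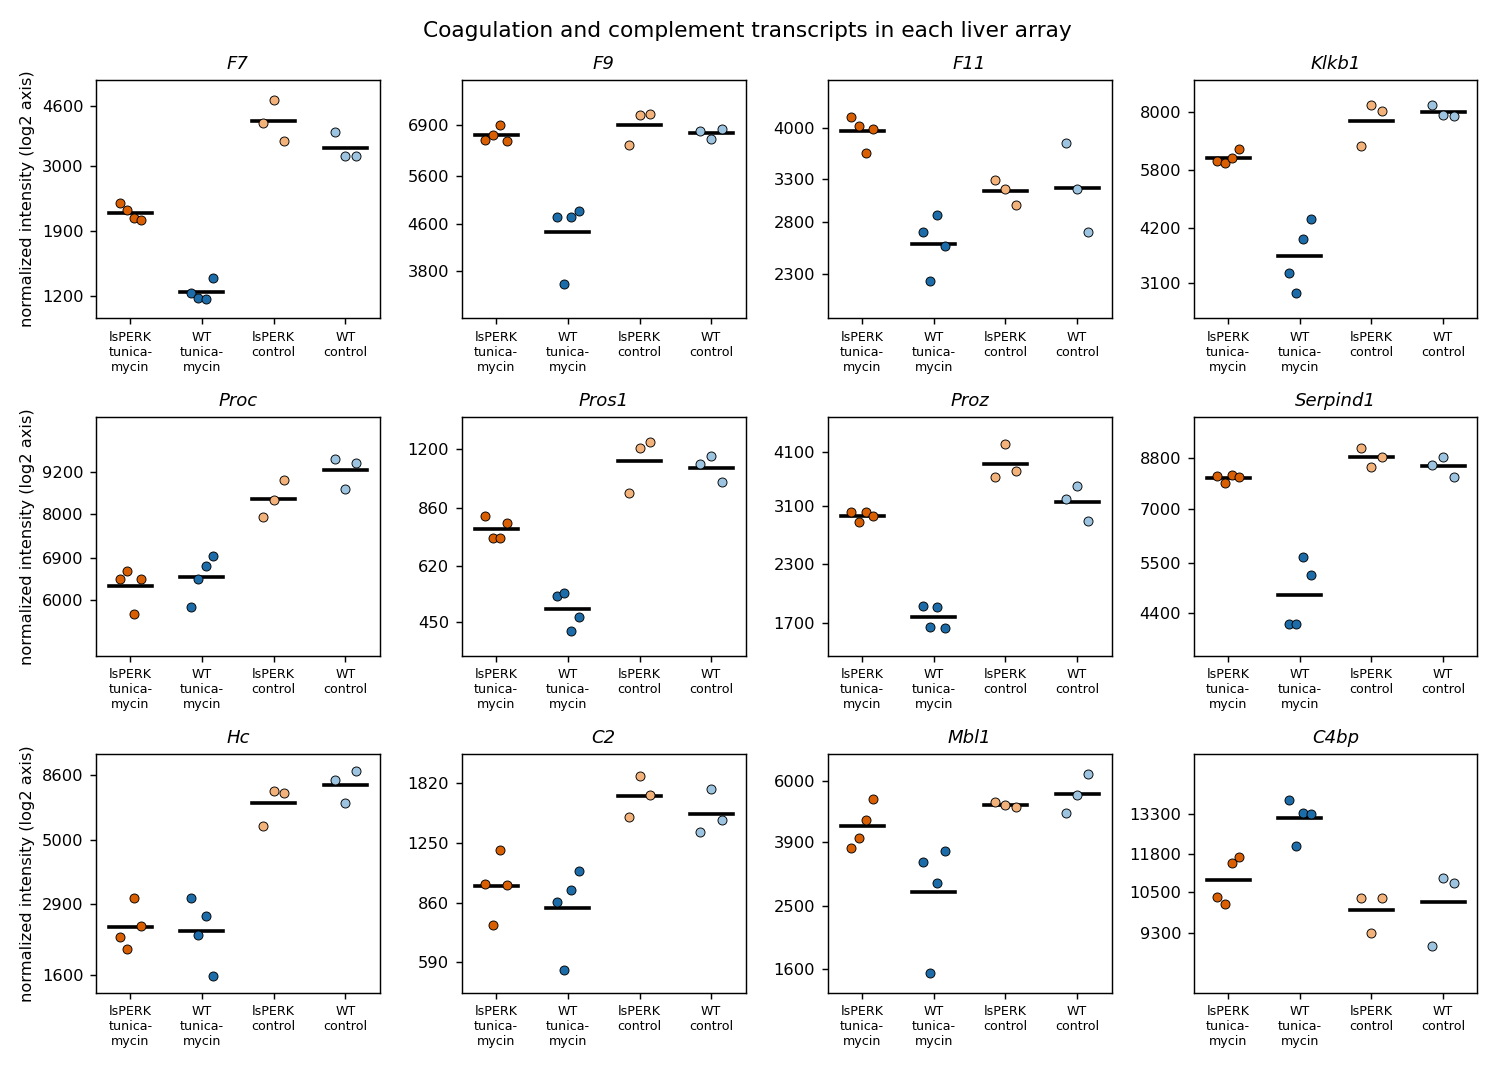
Normalized intensity (log2 axis) of 12 transcripts on each of the 14 arrays, with group geometric means as bars. F7, Klkb1, Pros1, Proz, Serpind1 and F9 are lowest on the 4 WT tunicamycin arrays, Hc and C2 are low on both sets of tunicamycin arrays, and C4bp is highest on the WT tunicamycin arrays.

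Of the 5 anticoagulants, 3 fell in lsPERK and 4 in WT livers, against 7.28% and 26.0% of all genes. Pros1 encodes protein S, the cofactor of activated protein C. It had 819, 725, 723 and 787 in lsPERK and 521, 531, 429 and 465 in WT livers given tunicamycin, and 936, 1207 and 1249 in lsPERK and 1098, 1150 and 993 in WT control livers. The 4 groups formed 3 tiers, WT tunicamycin lowest, lsPERK tunicamycin in between and all controls on top. Pros1 fell 1.47-fold in lsPERK (log2 -0.56 ± 0.12; limma adjusted p = 0.0067) and 2.22-fold in WT livers (log2 -1.15 ± 0.12; adjusted p = 4.26e-06), and the difference of 0.60 ± 0.17 (adjusted p = 0.0258) was lost without WT control replicate 1.

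Proz encodes protein Z, a cofactor for inhibition of factor Xa, and neighbours F10 and F7 on chromosome 8. Its intensities were 3015, 2860, 3003 and 2943 in lsPERK and 1858, 1668, 1847 and 1652 in WT livers given tunicamycin. Controls had 3596, 4272 and 3715 in lsPERK and 3215, 3442 and 2873 in WT livers. As with Pros1 the WT tunicamycin arrays were far below all others, and here the lsPERK controls also stood above the WT controls without overlap. The fall was 1.30-fold in lsPERK (log2 -0.38 ± 0.09; limma adjusted p = 0.00915) and 1.81-fold in WT livers (log2 -0.85 ± 0.09; adjusted p = 3.44e-06), with a difference of 0.47 ± 0.12 (adjusted p = 0.0164).

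Serpind1 is heparin cofactor II, a thrombin inhibitor. It had 8121, 7866, 8161 and 8094 in lsPERK and 4189, 4201, 5666 and 5225 in WT livers given tunicamycin, and 9201, 8463 and 8827 in lsPERK and 8515, 8838 and 8099 in WT control livers. The lsPERK tunicamycin arrays lay just below their controls and the WT ones far below. The lsPERK value was -0.13 ± 0.10 (limma adjusted p = 0.415), the WT fall was 1.77-fold (log2 -0.83 ± 0.10; adjusted p = 9.98e-06), and the difference was 0.70 ± 0.14 (adjusted p = 0.00314).

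Proc encodes protein C, which once activated cuts factors V and VIII. On tunicamycin arrays it read 6439, 6598, 5729 and 6427 in lsPERK and 5867, 6439, 6718 and 6954 in WT livers, and on control arrays 7909, 8369 and 8940 in lsPERK and 9607, 8696 and 9460 in WT livers. Both genotypes fell to the same range. Proc fell 1.33-fold in lsPERK (log2 -0.42 ± 0.08; limma adjusted p = 0.00215) and 1.43-fold in WT livers (log2 -0.51 ± 0.08; adjusted p = 9.12e-05), and the 95% limits of the difference ran from -0.14 to 0.33. Antithrombin, encoded by Serpinc1 and the main inhibitor of thrombin, was at -0.02 in both lsPERK and WT livers (adjusted p = 0.785 and 0.675).

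Of the 4 fibrinolysis proteins measured, 0 fell in lsPERK and 4 in WT livers, against 7.28% and 26.0% of all genes. Hrg, a histidine-rich glycoprotein that binds plasminogen, was at -0.07 in lsPERK and fell by 0.48 on the log2 scale in WT livers (limma adjusted p = 2.84e-05). Serpinf2, the plasmin inhibitor α2-antiplasmin, was at -0.07 and fell by 0.37, Plg, the plasmin precursor, was at 0.01 and fell by 0.18, and Vtn, vitronectin, was at -0.01 and fell by 0.15. The difference of responses was called for Hrg (0.42), Serpinf2 (0.30) and Plg (0.18), of which the last 2 were lost in most of the fits that left out 1 array. In the fit over all probe sets, the other probe set of Vtn was at -0.10 in lsPERK and fell by 0.45 on the log2 scale in WT livers. Its difference of responses was 0.35 (limma adjusted p = 0.0252), while that of Plg was not called in that fit (adjusted p = 0.0644).

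The 7 members whose proteins carry vitamin K-dependent carboxylation (F2, F7, F9, F10, Proc, Pros1 and Proz) had a median log2 response of -0.38 in lsPERK and -0.58 in WT livers. Of these, 4 fell in lsPERK and 6 in WT livers, against 7.28% and 26.0% of all genes. F2 was not called in WT livers, at -0.12 (limma adjusted p = 0.0513), although its WT tunicamycin arrays were all below its controls.

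Hc, component C5, had 2205, 1995, 3047 and 2420 in lsPERK and 3061, 2230, 2632 and 1581 in WT livers given tunicamycin, and 5611, 7538 and 7379 in lsPERK and 8296, 6789 and 8954 in WT control livers. Every tunicamycin array of either genotype was below every control array, and the genotypes overlapped. Hc fell 2.84-fold in lsPERK (log2 -1.51 ± 0.20; limma adjusted p = 0.000207) and 3.45-fold in WT livers (log2 -1.79 ± 0.20; adjusted p = 8.65e-06). Their difference was 0.28 with 95% limits of -0.34 and 0.90, and both falls were called in every alternative fit that was run.

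C2, the protease of the classical and lectin convertases, had 964, 749, 1198 and 961 in lsPERK and 862, 561, 930 and 1047 in WT livers given tunicamycin. Its controls had 1477, 1904 and 1687 in lsPERK and 1339, 1759 and 1447 in WT livers. Tunicamycin arrays lay below the controls in both genotypes, and the genotypes overlapped. C2 fell 1.76-fold in lsPERK (log2 -0.82 ± 0.20; limma adjusted p = 0.0141) and 1.82-fold in WT livers (log2 -0.86 ± 0.20; adjusted p = 0.00299), although not with median centring or values as deposited, and the lsPERK call was lost without lsPERK control replicate 2. Cfb, the alternative pathway counterpart of C2 and its neighbour on chromosome 17, was at -0.18 in lsPERK (adjusted p = 0.079) and fell by 0.60 on the log2 scale in WT livers (adjusted p = 6.99e-06). For Cfb the responses differed by 0.41 (adjusted p = 0.00775) and for C2 by 0.05 (adjusted p = 0.937).

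The lectin pathway begins with the mannose-binding lectins. Mbl1 had 3741, 4015, 4551 and 5301 in lsPERK and 3388, 1561, 2940 and 3679 in WT livers given tunicamycin, and 5189, 5077 and 4995 in lsPERK and 4809, 5427 and 6307 in WT control livers. WT tunicamycin arrays were all below their controls, with replicate 2 the lowest, and lsPERK tunicamycin arrays overlapped theirs. Mbl1 was at -0.22 ± 0.23 in lsPERK (limma adjusted p = 0.584) and fell 1.99-fold in WT livers (SE 0.23 on the log2 scale; adjusted p = 0.00267), and the difference of 0.77 was not called (adjusted p = 0.117). Mbl2 fell by 0.33 on the log2 scale in lsPERK, a call lost when any lsPERK tunicamycin array was left out, and by 0.38 in WT livers. Masp2, the lectin-associated protease that cuts C4 and C2, was at -0.14 in lsPERK and fell by 0.67 in WT livers, and its other probe set fell in both, by 0.70 in lsPERK and 1.16 in WT livers.

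Masp1 gave no single answer. Its brightest probe set was at -0.07 in lsPERK and 0.08 in WT livers, and neither passed the test. In a fit over all probe sets another of its 5 fell by 0.60 on the log2 scale in WT livers, and the dimmest was called higher at 0.62. The probe set that fell by 0.60 had a difference of responses of 0.54 (limma adjusted p = 0.0355). That difference was not called for any other probe set of Masp1. The files used here do not say which transcript form each probe set reads.

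C4bp encodes the C4b-binding protein, which assists factor I in breaking down C4b, and was the only member called higher in any response. It had 10350, 10130, 11479 and 11664 in lsPERK and 13846, 12073, 13328 and 13290 in WT livers given tunicamycin, and 10336, 9283 and 10326 in lsPERK and 8930, 10957 and 10809 in WT control livers. The 4 WT tunicamycin arrays were above all 10 others. C4bp was at 0.13 ± 0.08 in lsPERK (limma adjusted p = 0.357) and rose 1.29-fold in WT livers (log2 0.36 ± 0.08; adjusted p = 0.00259). With median centring the WT value was 0.22 and not called. Cfi, factor I itself, was at -0.06 in lsPERK and fell by 0.31 on the log2 scale in WT livers (adjusted p = 0.00015), with a difference of 0.25 (adjusted p = 0.0218) that was lost without WT control replicate 1.

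The pore of complement is built from C5, C6, C7, C8 and C9, and 4 of its measured genes were set apart by Xist. Its deposited signal was above 1000 on 6 arrays and below on 8, and the high ones were 2 of 4 lsPERK and 1 of 4 WT tunicamycin arrays and 2 of 3 lsPERK and 1 of 3 WT control arrays. C6 read 294, 216, 4143 and 4362 in lsPERK and 2866, 299, 2761 and 2841 in WT livers given tunicamycin, and 391, 329 and 2890 in lsPERK and 463, 3993 and 3227 in WT control livers. The low readings are those of the arrays with high Xist in every group.

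Over the 6 Xist-high arrays C6 ranged from 215.7 to 463.4, against 2761 to 4362 over the 8 Xist-low ones. C8a and C8b, which encode chains of C8 and are neighbours on chromosome 4, ranged from 3399 to 6052 against 11260 to 12640, and from 1027 to 2363 against 3793 to 6398. C9, the main constituent of the pore, ranged from 2026 to 6654 against 9184 to 12880. These 4 of 36 members (11.1%) were lower on all Xist-high arrays and 0 were higher, where all genes gave 0.794% and 1.07%. C8g, the third chain of C8, and Hc overlapped, and C8g was at 0.05 in lsPERK and fell by 0.31 on the log2 scale in WT livers (limma adjusted p = 0.0153). This is a description of arrays sorted by a signal measured on them, with no test.

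None of the 4 was called in either response without regard to Xist. The log2 responses were 0.52 in lsPERK and -0.17 in WT livers for C6, 0.50 and 0.13 for C8a, -0.03 and -0.32 for C8b, and -0.12 and -0.50 for C9. Their 95% limits were wide, from -2.85 to 2.51 for the WT response of C6. With Xist high or low as a covariate, C8b fell by 0.46 (limma adjusted p = 0.0382) and C9 by 0.63 (adjusted p = 0.0135) on the log2 scale in WT livers. In lsPERK livers C8b was then at -0.32 (adjusted p = 0.229) and C9 at -0.38 (adjusted p = 0.194). C6 and C8a passed the test in neither response with that covariate. The counts of members called with it were 10 in the lsPERK response (9 lower), 29 in the WT response, 0 between control livers, 23 between livers given tunicamycin and 18 for the difference.

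**Figure D3:**
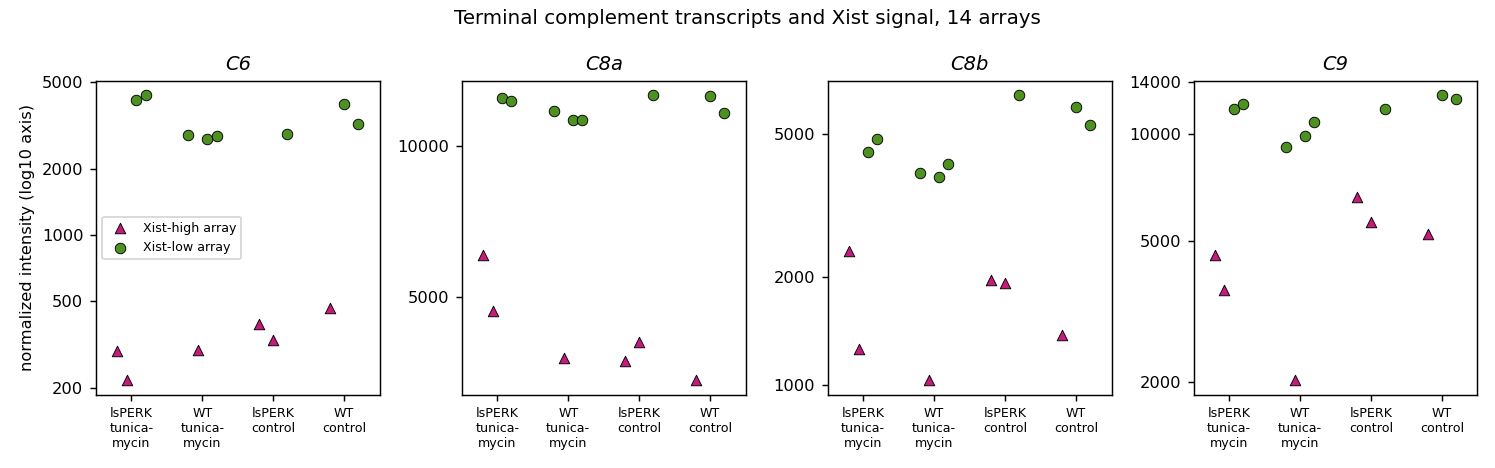
Normalized intensity (log10 axis) of C6, C8a, C8b and C9 on the 14 arrays by group, with triangles for the 6 arrays of high Xist signal and circles for the 8 of low signal. Triangles lie below circles in every group, by the widest gap for C6.

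Of the 36 transcripts, 0 were called between lsPERK and WT control livers, as were 0% of all genes tested in limma's fit, and at an unadjusted p under 0.05 there were 2, F7 and Proz, against 4.23% of all genes. F7 was at 0.27 and Proz at 0.28 on the log2 scale, lsPERK over WT (adjusted p = 0.991 for both). By separate arrays, F13b and Proz were higher in lsPERK and 0 members lower, where all genes gave 2.79% and 4.59%. Leaving aside C6, C8a, C8b and C9, the largest difference was 0.28, that of Proz.

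After tunicamycin many of the set were higher in lsPERK livers. Of the 36, 18 were higher and 1, C4bp, lower in lsPERK than in WT livers in limma's test, against 18.5% and 16.8% of all genes. The median log2 difference was 0.20 for the 36 and 0.05 for all genes. Every lsPERK array was above every WT array for 17 members and below for 1, where all genes gave 18.6% and 17.7%. The higher ones were 8 of 13 clotting and contact factors, 6 of 9 anticoagulants and fibrinolysis proteins and 4 of 14 complement proteins.

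By size the order was F7 (1.75-fold), Klkb1 (1.72-fold), Serpind1 and Proz (1.69-fold each), Mbl1 (1.59-fold) and Pros1 (1.57-fold), all higher in lsPERK livers. F11, F9, F13b, F10, Cfb, Hrg, Serpinf2, C8g, Cfi, Kng1, Fga and Plg followed, at log2 differences of 0.61 down to 0.18. Neighbours in that order lay within each other's 95% limits. Hc (0.05), C2 (0.21), Proc (-0.04), Serpinc1 (0.04), F2 (0.06) and F5 (-0.06) were not called. With values as deposited 9 members were called higher and 0 lower.

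**Figure D4:**
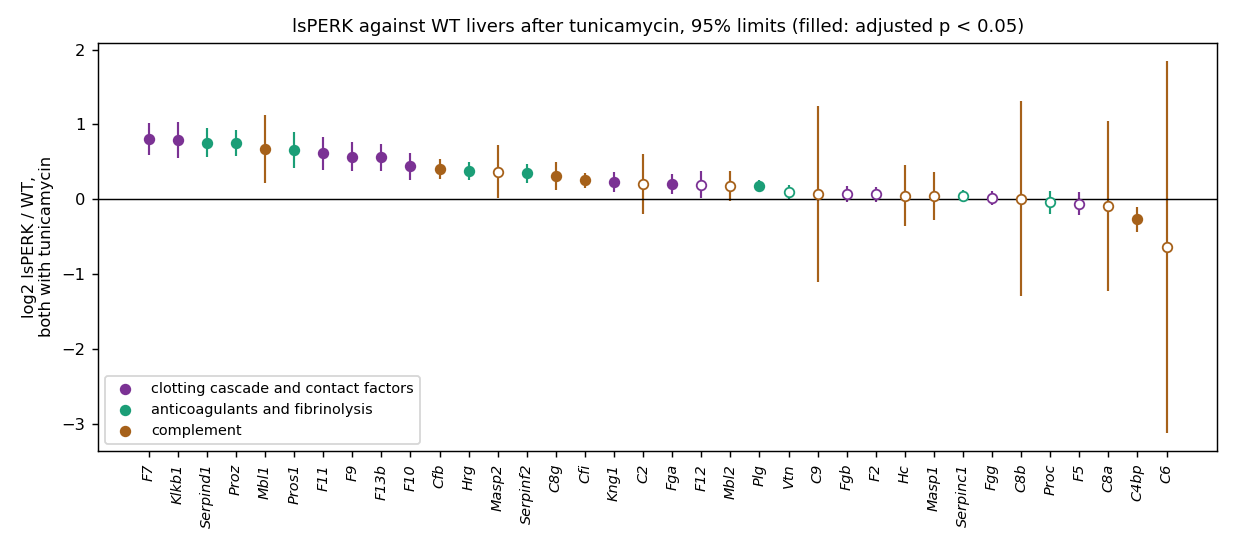
The log2 ratio of lsPERK to WT livers, both given tunicamycin, for the 36 transcripts in order of size, with 95% confidence limits and colours by role. Filled points had an adjusted p under 0.05, 18 of them above 0 and 1, C4bp, below.

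The difference of the tunicamycin responses, lsPERK minus WT, tests the genotype effect net of the control livers. It was called for 12 of the 36, all positive, against 10.2% of all genes positive and 9.70% negative. They were F7, F9, F11, Klkb1, Pros1, Proz, Serpind1, Plg, Serpinf2, Hrg, Cfb and Cfi, which is 4 of 13 clotting and contact factors, 6 of 9 anticoagulants and fibrinolysis proteins and 2 of 14 complement proteins. The median difference was 0.30 for the 36 and 0.08 for all genes. Without WT control replicate 1 the count was 7. The split by role also depended on the processing. With median centring, 4 of 13 clotting and contact factors, 2 of 9 anticoagulants and fibrinolysis proteins and 2 of 14 complement proteins were called. With values as deposited the count was 1, with 0 of 9 anticoagulants and fibrinolysis proteins. On that scale the median was 0.08 for the 36 and -0.42 for all genes.

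Members with brighter probe sets had smaller falls in WT livers. Across the 36 members the mean log2 signal and the signed log2 response had a Spearman rho of 0.62, a correlation across genes that share the same arrays. Of the 9 members in the brightest 1% of genes (F2, Fga, Fgb, Fgg, Kng1, Serpinc1, Plg, Vtn and Cfi), 5 fell in WT livers, with values from -0.31 to -0.01. Among all 121 genes of that brightness 24.0% fell, with a median absolute log2 response of 0.09, against 0.36 for the next 4% by brightness. The part of this in the small responses of fibrinogen, antithrombin and prothrombin was not tested, and brightness of different probe sets is not an order of transcript amount.

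Other genes of clotting and complement showed a mixture. Of 15 measured coagulation and fibrinolysis genes outside the set, 1 rose and 1 fell in lsPERK, and 3 rose and 4 fell in WT livers. Over all genes 8.39% rose and 7.28% fell in lsPERK, and 20.7% rose and 26.0% fell in WT livers. S100a10, which presents plasminogen at the cell surface, rose in both (log2 1.13 and 1.36), and Gas6, a protein S relative, fell in both, by 0.93 in lsPERK and 1.11 in WT livers (limma adjusted p = 0.0202 and 0.00206). Serpina10, the inhibitor for which protein Z is the cofactor, was at -0.18 in lsPERK and fell by 0.25 in WT livers. Tfpi2, a protease inhibitor, was at -0.04 in lsPERK and rose by 0.55 in WT livers.

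Of 22 other complement genes, 2 fell in lsPERK, 8 fell in WT livers and 0 rose in either, where 7.28% and 26.0% of all genes fell. The median was -0.30 in lsPERK and -0.54 in WT livers, and 4 of the listed genes are also Kupffer cell markers. Cpn2, the carrier subunit of carboxypeptidase N, fell in both, by 0.67 in lsPERK and 0.99 in WT livers. C1ra, the C1r protease, was at -0.35 in lsPERK and fell by 0.92 in WT livers. Serping1, the C1 inhibitor, fell in both, by 0.30 in lsPERK and 0.23 in WT livers, and Cpn1, the catalytic subunit of carboxypeptidase N, was at -0.19 and fell by 0.40.

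Clotting factors leave the ER through cargo receptors, and several are carboxylated there. Among all genes tested, 8.39% rose and 7.28% fell in lsPERK, and 20.7% rose and 26.0% fell in WT livers. Of 5 genes for ER export, 4 rose in both genotypes, Mcfd2, Lman1, Surf4 and Lman2. Mcfd2 and Lman1 form the receptor that carries factors V and VIII out of the ER. Mcfd2 rose by 0.52 in lsPERK and 1.08 in WT livers, and Lman1 by 0.56 in lsPERK and 0.66 in WT livers (limma adjusted p = 0.00112 and 6.29e-05). Of 5 genes around vitamin K, 3 rose and 1 fell in lsPERK, and 2 rose and 1 fell in WT livers. Ggcx, the vitamin K-dependent carboxylase, rose by 0.48 in lsPERK (adjusted p = 0.021) and was at -0.29 in WT livers (adjusted p = 0.077), and the difference was 0.78 (adjusted p = 0.00907). Calu, an ER calcium-binding protein, rose in both (0.61 and 1.08), as did Vkorc1l1, a vitamin K epoxide reductase (0.75 and 0.97), and Nqo1, a quinone reductase, fell in both (by 0.91 and 1.02).

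Other liver products give a scale for the set. Of all genes, 7.28% fell and 8.39% rose in lsPERK, and 26.0% fell and 20.7% rose in WT livers. Of 30 other secreted plasma proteins, 1 rose and 3 fell in lsPERK and 10 fell in WT livers, with medians of -0.00 and -0.10, and Igfals, the carrier subunit of the IGF complex, fell by 0.92 in lsPERK and 2.82 in WT livers. Of 16 acute-phase proteins, 0 were called in lsPERK, while 2 rose and 5 fell in WT livers. Among 19 transcription factors of liver genes, 3 rose and 5 fell in lsPERK and 6 rose and 6 fell in WT livers. Foxa2 fell by 0.71 in lsPERK and fell by 1.78 in WT livers (limma adjusted p = 0.0246 and 6.30e-06), Ppara was at -0.45 in lsPERK and fell by 1.97 in WT livers, and Cebpa fell by 1.23 in lsPERK and 1.01 in WT livers. Nr2f2 was at -0.43 in lsPERK and fell by 1.13 in WT livers, and Atf6 rose by 1.01 in lsPERK and 1.21 in WT livers.

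**Figure D5:**
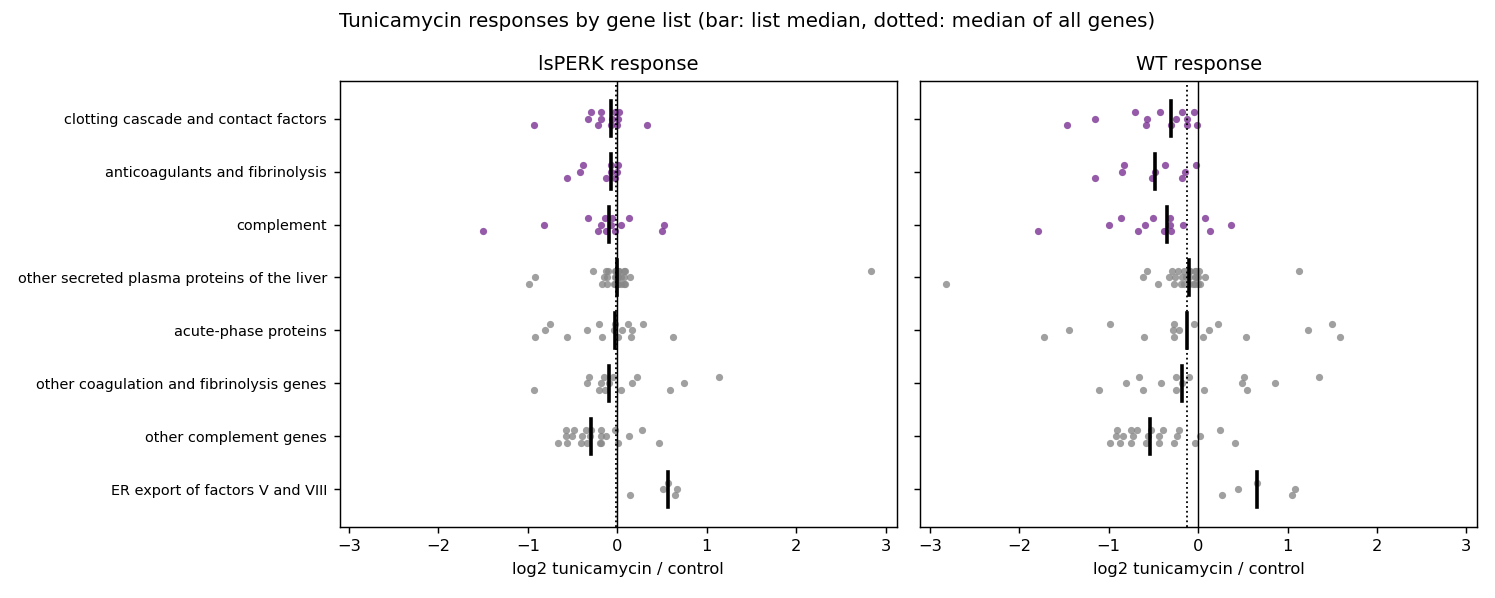
The log2 ratio of tunicamycin to control livers for every measured gene of 8 lists, lsPERK response left and WT response right. Bars are list medians, the dotted line is the median of all genes, the 3 purple lists are the 36 members and the grey lists are other genes. In WT livers the medians of the 3 purple lists lie left of the dotted line, and that of the ER export list lies right of it in both genotypes.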

How the data were processed

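Total liver RNA was hybridised to 14 Affymetrix mouse whole-genome arrays. The authors deposited linear probe set intensities made with MAS5 in GCOS, per the submitters' processing notes, with versions not given in the sources used here. Log2 values of the deposited intensities were quantile-normalized, and probe sets above the pooled median on at least 3 arrays were kept. Each gene was its brightest kept probe set with 1 gene symbol. Probe sets with several symbols, none, or control roles were left out, and C3 and Cpb2 were not analysed here.

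The 4 groups came from the sample titles. limma 3.58.1 in R 4.3.3 fitted 4 group means with a trended prior, and p-values were adjusted by Benjamini-Hochberg over 12084 genes per contrast. The script was tested on simulated data. The members and lists were chosen with earlier results of these data known. All members are named, per-array values go to up to 6 called genes per direction by size of change, and up to 4 called genes per other list are named by p. Alternatives were deposited values, median centring, other filters, an added constant, other variance models, probe set averaging, a minimum fold, Xist or 3′ to 5′ ratio as covariate, the replicate block and leaving out each array. Same-numbered samples were checked for shared deviations: of 19 pairs, r ran from -0.366 to 0.419 and 13 were over 0.1. All 3 pairs of lsPERK tunicamycin with lsPERK control samples were over 0.1 (0.243 to 0.349), while in the other comparisons at least 1 pair was below 0. All 13 pairs over 0.1 joined arrays alike in Xist signal, and every pair below 0 joined a high with a low array. Pairing by number therefore cannot be told apart from shared Xist signal, and the main fit paired no samples. The number of arrays limits the precision.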

Additional observations from a re-analysis of the deposited data

Results flagged for a closer look

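On WT tunicamycin replicate 2, 5 members lay far below the other 3 arrays of the group. F9 read 3602 there, with the others at 4748 to 4862. C6 read 299 (others 2761 to 2866), C8a 3768 (11260 to 11770), C8b 1027 (3793 to 4123) and C9 2026 (9184 to 10820). That array is the only one of its group with high Xist signal, whose part in these values was not tested. Over all arrays C6, C8a, C8b and C9 were lower on every Xist-high array. F9 was not: it ranged from 3602 to 7191 on Xist-high and from 4748 to 7218 on Xist-low arrays. Over the 72 groups of 4 arrays examined, chance would mark about 1 in 20.

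The tunicamycin response differed between lsPERK and WT livers for 12 members by limma's test of the difference. On the log2 scale, lsPERK minus WT, it was 0.54 for F7, 0.52 for F9, 0.63 for F11, 0.85 for Klkb1, 0.60 for Pros1 and 0.47 for Proz. It was 0.70 for Serpind1, 0.18 for Plg, 0.30 for Serpinf2, 0.42 for Hrg, 0.41 for Cfb and 0.25 for Cfi. Adjusted p-values from limma ran from 0.00314 for Serpind1 to 0.0473 for Plg.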

How the results depend on the processing

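Main counts of members called were 8 in the lsPERK response, 26 in the WT response, 0 between control livers, 19 between livers given tunicamycin and 12 for the difference of responses. With values as deposited they were 3, 10, 0, 9 and 1, and with a minimum fold of 1.5 they were 3, 11, 0, 7 and 4. Median centring gave 2 in the lsPERK response. Leaving out 1 array gave 4 to 9 (4 without lsPERK control replicate 2), 23 to 27, 0 to 0, 17 to 19 and 7 to 12 (7 without WT control replicate 1). The replicate block, which ties same-numbered arrays of all 4 groups, gave 8, 25, 0, 19 and 11. It changed no call in the lsPERK response and lost Fga in the WT response. Among the differences it lost Plg and Serpinf2 (leaving 4 of 9 anticoagulants and fibrinolysis proteins, against 6 without the block) and added F13b. The other counts were within 1.5 times the main ones. Direction reversed for F11 in the WT response with values as deposited (0.13) and for C8a between livers given tunicamycin with Xist as a covariate (0.30). The causes were not tested. A fit of only the groups compared was not run for the difference of responses, which uses all 4.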
